A study of Homo sapiens with 12 samples.

Results

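PANC1 cells cultured in 5% gelatin methacryloyl (GelMA) were compared with PANC1 cells cultured in collagen. PANC1 is an established human cell line from a pancreatic ductal adenocarcinoma, poorly differentiated and with mesenchymal traits. GelMA is gelatin, which is denatured collagen, carrying methacryloyl groups that allow it to be cross-linked into a gel. The comparison takes in the genes with at least 1 RPKM (reads per gene length and library size, a log2 value of at least 0) in at least 2 of the 4 libraries of these groups, which gave 14305 of the 16299 genes deposited. Of these, 12374 are protein-coding in GENCODE 29. Each group held 2 libraries. PANC1 in 7.5% GelMA (2 libraries) and BXPC3, another pancreatic ductal adenocarcinoma line, in 5% GelMA and in collagen (2 libraries each) are used here for comparison. All cultures were grown in high glucose DMEM with foetal bovine serum and antibiotics. The labels give no gel stiffness, culture time or oxygen level. They also do not say whether replicate libraries came from separate cultures, so the p-values reflect library-to-library spread that may be technical. Each line stands for 1 tumour.

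Pancreatic ductal adenocarcinoma is known for a dense, poorly perfused matrix, through which oxygen, nutrients and adhesion cues reach the tumour cells. Low oxygen stabilises the HIF transcription factors, whose targets raise glucose uptake, glycolysis, angiogenic signals and the enzymes that hydroxylate collagen. Shortage of amino acids or stress in the endoplasmic reticulum activates the transcription factor ATF4, sensing of foreign or misplaced nucleic acids switches on interferon-stimulated genes, and falling sterol levels activate SREBP2 and the cholesterol synthesis genes.

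Values below are log2 RPKM, read from their distribution as quantile normalized, and sequencing depth is unknown. Differences between replicate libraries had an SD of 0.295 log2 in 5% GelMA and 0.341 log2 in collagen over the genes tested. Standard errors (SE) come from a spread pooled over all 6 groups of both lines, so a gene that varied in BXPC3 has a wide SE here. Keratins KRT8 and KRT18 stood between 10.37 and 11.53 log2 RPKM in the 4 libraries and KRT7 between 1.80 and 2.48. SMAD4, which PANC1 carries and BXPC3 has lost, had 4.22 and 4.27 log2 RPKM in 5% GelMA, against 4.54 and 4.55 in collagen, and in BXPC3 all its values were under -5 log2 RPKM, as the labels of the lines imply. Markers of other cell types were few. Of 12 fibroblast markers 5 were in the table and 3 among the 14305 genes, summing to 224 and 229 RPKM in 5% GelMA, against 143 and 149 RPKM in collagen, most of it COL1A1. The 5 endothelial markers in the table, 2 of them among the 14305 genes, summed to 5.88 and 5.47 RPKM in 5% GelMA, against 4.31 and 4.72 RPKM in collagen. Of 12 immune markers, 5 were in the table, summing to 18.2 and 15.8 RPKM in 5% GelMA, against 8.62 and 9.48 RPKM in collagen. Among these CD14, ITGAM and TRBC2 passed the level rule, while PTPRC, CD3D, MS4A1 and CSF1R were not analysed here. The only acinar or endocrine marker in the table, PRSS1, stood at 0.357 and 0.295 RPKM in 5% GelMA, against 0.170 and 0.0584 RPKM in collagen. PDGFRA, RGS5, CD3E and LYZ were in the table under the level rule, and COL1A2, DCN, CDH5 and CD68 were not analysed here. In bulk RNA, fewer cells with a transcript and less transcript per cell cannot be told apart.

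A large share of the transcriptome differed between the gels, in about equal numbers upward and downward. Quantile normalization gives the libraries nearly the same distribution, which largely fixes this balance and a median change near 0. Nothing is read from either. With limma fitted over all 12 libraries and Benjamini-Hochberg adjustment over the 15794 genes tested, 46.2% of the genes tested were called at an adjusted p under 0.05, 23.0% higher and 23.2% lower in 5% GelMA. Among the 14305 genes of the comparison, 3435 were higher and 3490 lower, a share of 48.4%, and their median log2 fold change was -0.01. At least 2-fold changes were found for 506 higher and 429 lower genes. The 2 libraries in 5% GelMA did not overlap the 2 in collagen for 11191 of the 14305 genes and for 76.0% of all genes tested. In all 4 libraries 13691 genes reached 1 RPKM. Another 172 reached it only in the 5% GelMA libraries and 170 only in the collagen libraries. These had to differ, so that the 143 of the 172 genes and the 114 of the 170 genes that were called are no support for the count. Just inside the rule, the 391 genes at 1 RPKM in exactly 2 libraries had a median level of 0.02 log2 RPKM, and just outside it the 228 genes at 1 RPKM in exactly 1 library had a median of -0.30. A list whose shares of higher and lower genes are near 23.0% and 23.2% is like all genes tested, and nothing is read from its counts.

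**Figure D1:**
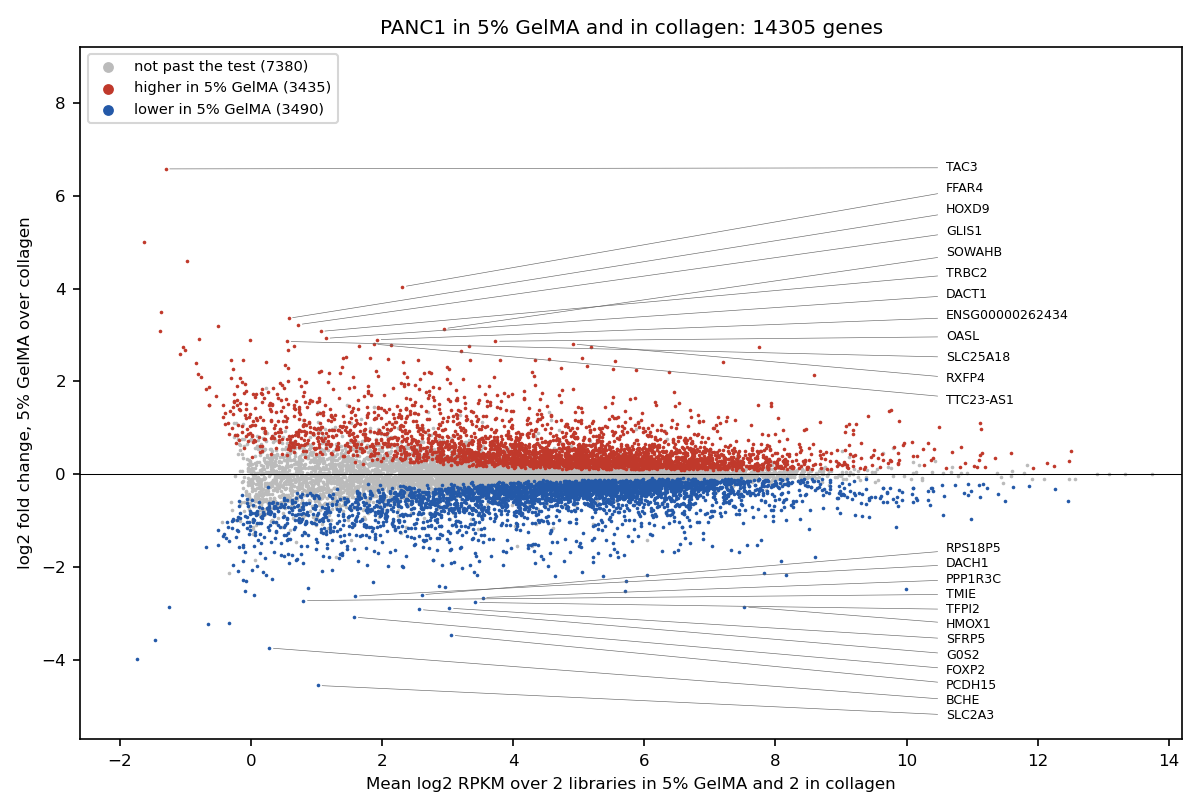
Each point is 1 of the 14305 genes, with its mean log2 RPKM over the 4 libraries on the x axis and its log2 fold change, 5% GelMA over collagen, on the y axis. Red points (3435) were higher and blue points (3490) lower at an adjusted p under 0.05, grey points did not pass, and the 12 highest and 12 lowest genes of the naming rule carry their symbols.

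Among called genes averaging at least 3 RPKM in 1 of the 2 gels, the highest log2 fold change belonged to TAC3, which encodes the precursor of neurokinin B. TAC3 (chromosome 12, 57010000 to 57028883, GRCh38) had 2.00 and 1.97 log2 RPKM in 5% GelMA, against -3.78 and -5.40 in collagen. It lay far under 1 RPKM in both collagen libraries, so the size of its fold change depends on how low values were set (log2 fold change 6.58 ± 0.56 SE, adjusted p = 1.17e-05). FFAR4, a receptor for long-chain fatty acids, had 4.35 and 4.30 log2 RPKM in 5% GelMA, against 0.69 and -0.11 in collagen (log2 fold change 4.04 ± 0.35 SE, adjusted p = 1.31e-05), and the groups were far apart. RXFP4, a receptor for an insulin-like peptide, was well expressed in both gels, at 6.38 and 6.25 in 5% GelMA, against 3.42 and 3.59 in collagen (log2 fold change 2.81 ± 0.18 SE, adjusted p = 2.46e-06). Transcription factors were among the leading genes too. HOXD9 had 2.34 and 2.16 log2 RPKM in 5% GelMA, against -0.62 and -1.59 in collagen (log2 fold change 3.36 ± 0.57 SE, adjusted p = 0.00100), and GLIS1 had 2.40 and 2.26 in 5% GelMA, against -0.89 and -0.89 in collagen (log2 fold change 3.22 ± 0.44 SE, adjusted p = 0.000242). DACT1, a Dishevelled-binding regulator of Wnt signalling, had 2.65 and 2.57 log2 RPKM in 5% GelMA, against -0.05 and -0.59 in collagen (log2 fold change 2.93 ± 0.55 SE, adjusted p = 0.00180). TAC3, HOXD9, GLIS1, DACT1 and SLC25A18 passed the level rule only through the 5% GelMA libraries, so they had to differ. SOWAHB, SLC25A18 (a mitochondrial glutamate carrier), OASL, and the antisense transcripts ENSG00000262434 and TTC23-AS1 completed the leading group, with log2 fold changes of 3.13, 2.86, 2.87, 2.90 and 2.81. The values of the antisense transcripts are uncertain, since the strand setting of the counting is not known. TRBC2, a T cell receptor constant region, had 2.71 and 2.49 log2 RPKM in 5% GelMA, against 0.98 and -1.93 in collagen, and its collagen libraries differed from each other by more than the 5% GelMA libraries differed from the nearer of them (log2 fold change 3.08 ± 0.67 SE, adjusted p = 0.00412). Without collagen replicate 2 its log2 fold change was 1.62. With log2(RPKM + 1), a scale that shrinks the changes of low genes, the log2 fold changes were 2.24 for TAC3, 1.96 for HOXD9, 1.97 for GLIS1, 1.66 for SLC25A18 and 1.87 for TRBC2.

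Among well expressed genes, the largest decrease was that of SLC2A3, the high-affinity glucose transporter GLUT3, which had -1.73 and -0.78 log2 RPKM in 5% GelMA, against 3.22 and 3.37 in collagen. Both collagen libraries were near 10 RPKM and both 5% GelMA libraries under 1 RPKM (log2 fold change -4.55 ± 0.39 SE, adjusted p = 1.28e-05). BCHE, which encodes butyrylcholinesterase, had -1.70 and -1.48 log2 RPKM in 5% GelMA, against 2.16 and 2.13 in collagen (log2 fold change -3.74 ± 0.24 SE, adjusted p = 2.20e-06). PCDH15, a protocadherin known from the hair cells of the inner ear, had 1.00 and 1.64 log2 RPKM in 5% GelMA, against 4.73 and 4.83 in collagen (log2 fold change -3.46 ± 0.29 SE, adjusted p = 1.07e-05). TMIE, another hair cell gene, lay under 1 RPKM in 5% GelMA, at -0.68 and -0.44 in 5% GelMA, against 2.15 and 2.17 in collagen (log2 fold change -2.72 ± 0.21 SE, adjusted p = 7.53e-06). The transcription factors FOXP2 and DACH1 fell with log2 fold changes of -3.07 and -2.62. HMOX1, the stress-inducible enzyme that degrades heme, was the most abundant of the leading decreases, with 6.05 and 6.15 log2 RPKM in 5% GelMA, against 8.88 and 9.02 in collagen (log2 fold change -2.85 ± 0.13 SE, adjusted p = 3.66e-07). SFRP5, a secreted Wnt antagonist, had 1.54 and 1.63 log2 RPKM in 5% GelMA, against 4.43 and 4.51 in collagen (log2 fold change -2.88 ± 0.42 SE, adjusted p = 0.000386). G0S2, an inhibitor of triglyceride lipase, had 0.29 and 1.93 log2 RPKM in 5% GelMA, against 4.12 and 3.93 in collagen, with the 5% GelMA libraries apart by more than 1 log2 unit (log2 fold change -2.91 ± 0.41 SE, adjusted p = 0.000315). TFPI2, a serine protease inhibitor of the matrix, had 1.90 and 2.19 log2 RPKM in 5% GelMA, against 4.80 and 4.81 in collagen (log2 fold change -2.76 ± 0.21 SE, adjusted p = 6.56e-06), and PPP1R3C, which brings a phosphatase to glycogen, had 1.88 and 2.54 in 5% GelMA, against 4.84 and 4.88 in collagen (log2 fold change -2.65 ± 0.20 SE, adjusted p = 6.24e-06). The naming rule took only genes without overlap between the gels, and SLC2A3, BCHE and TMIE passed the level rule only through the collagen libraries. With log2(RPKM + 1) their log2 fold changes were -2.91 for SLC2A3, -2.03 for BCHE and -1.70 for TMIE. The pseudogene RPS18P5 (-2.59) shares sequence with RPS18 and is uncertain.

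Genes that respond to low oxygen were lower in 5% GelMA almost without exception. Of 32 HIF target genes outside the glycolytic enzymes, 31 fell and 0 rose, with a median log2 fold change of -1.53, against -0.01 over all genes tested. SLC2A3 is among them. The remaining gene was CA12, a carbonic anhydrase, at 2.00 and 2.37 in 5% GelMA, against 2.18 and 1.56 in collagen (log2 fold change 0.31 ± 0.27 SE, adjusted p = 0.370). NDRG1, a stress-responsive gene strongly tied to hypoxia, had 4.42 and 4.47 log2 RPKM in 5% GelMA, against 6.98 and 6.94 in collagen (log2 fold change -2.51 ± 0.18 SE, adjusted p = 4.17e-06). VEGFA, the main angiogenic growth factor, had 7.09 and 7.05 log2 RPKM in 5% GelMA, against 9.13 and 9.36 in collagen (log2 fold change -2.17 ± 0.067 SE, adjusted p = 2.82e-08), and ANGPTL4, an inhibitor of lipoprotein lipase, had 6.77 and 6.74 in 5% GelMA, against 8.95 and 8.82 in collagen (log2 fold change -2.12 ± 0.16 SE, adjusted p = 5.97e-06). DDIT4, an inhibitor of mTORC1 signalling, was more abundant, at 8.72 and 8.80 in 5% GelMA, against 11.19 and 11.28 in collagen (log2 fold change -2.48 ± 0.059 SE, adjusted p = 1.48e-08). For all 4 genes the replicates differed by far less than the gels. Lower too were BNIP3 and BNIP3L, mitophagy receptors (-1.52 and -1.43), the histone demethylases KDM3A (-1.47), KDM4B (-0.89) and KDM4C (-0.61), the nuclear receptor RORA (-2.11), and the stanniocalcins STC1 (-1.04) and STC2 (-1.87). The smallest decreases were those of BHLHE40 (-0.26) and BHLHE41 (-0.35), transcriptional repressors.

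The promoters of 4 of these genes are shown because each of them carries ACGTG, the core of the hypoxia response element, within the 180 bases upstream of its RefSeq start. The letters are from RefSeq on GRCh38.p14, 5′ to 3′ in the direction of the gene, in lower case, with ACGTG on either strand in capitals. ANKRD37 (ankyrin repeat protein) lies at chr4:185396661-185396840, plus strand, ERO1A (an oxidase for disulfide bonds in the endoplasmic reticulum) at chr14:52695559-52695738, minus strand, P4HA1 (the catalytic subunit of collagen prolyl hydroxylase) at chr10:73096867-73097046, minus strand and AK4 (a mitochondrial adenylate kinase) at chr1:65147372-65147551, plus strand.
ANKRD37: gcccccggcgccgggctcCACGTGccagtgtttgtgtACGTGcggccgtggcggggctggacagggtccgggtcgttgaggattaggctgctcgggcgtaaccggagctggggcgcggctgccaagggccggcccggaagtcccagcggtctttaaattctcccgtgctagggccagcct
ERO1A: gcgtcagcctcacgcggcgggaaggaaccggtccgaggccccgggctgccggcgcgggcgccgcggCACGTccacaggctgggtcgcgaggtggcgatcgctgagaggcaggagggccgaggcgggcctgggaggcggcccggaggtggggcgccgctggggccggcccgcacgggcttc
P4HA1: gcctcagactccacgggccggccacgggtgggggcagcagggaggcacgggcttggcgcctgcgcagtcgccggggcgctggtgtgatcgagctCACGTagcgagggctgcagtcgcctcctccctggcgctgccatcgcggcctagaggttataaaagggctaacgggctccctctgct
AK4: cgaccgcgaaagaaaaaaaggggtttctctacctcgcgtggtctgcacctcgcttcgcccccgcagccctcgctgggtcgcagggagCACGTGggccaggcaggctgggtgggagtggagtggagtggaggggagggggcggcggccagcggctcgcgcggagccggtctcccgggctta
In ANKRD37 and AK4 the stretch cacgtg reads ACGTG on both strands, so 2 matches overlap there, and this palindrome is also an E-box. ANKRD37 had 3.15 and 3.20 log2 RPKM in 5% GelMA, against 4.77 and 4.76 in collagen (log2 fold change -1.59 ± 0.21 SE, adjusted p = 0.000173). ERO1A had 6.79 and 6.81 log2 RPKM in 5% GelMA, against 8.33 and 8.33 in collagen (log2 fold change -1.53 ± 0.08 SE, adjusted p = 5.86e-07). P4HA1 had 6.47 and 6.53 log2 RPKM in 5% GelMA, against 8.11 and 8.14 in collagen (log2 fold change -1.63 ± 0.07 SE, adjusted p = 2.32e-07) and AK4 had 4.74 and 4.73 in 5% GelMA, against 6.35 and 6.34 in collagen (log2 fold change -1.61 ± 0.19 SE, adjusted p = 8.63e-05). In each of these 4 genes both 5% GelMA libraries were lower than both collagen libraries. ACGTG occurred on either strand in the 250 bases upstream of 16 of the 25 hypoxia targets with a promoter in the table (64.0%) and of 9 of 20 glycolysis genes (45.0%), against 18.7% of 27305 promoters. Among the 10684 genes of the comparison with a promoter the share was higher, at 23.4%. These are matches of letters, and binding was not measured.

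The oxygen sensing machinery was split. Of 9 oxygen sensors and HIF subunits, 5 rose and 3 fell (median 0.25), with 3 higher when 5% GelMA replicate 1 was left out. HIF1A, the oxygen-regulated HIF subunit, had 6.62 and 6.71 log2 RPKM in 5% GelMA, against 5.77 and 5.67 in collagen (log2 fold change 0.95 ± 0.093 SE, adjusted p = 2.94e-05), and EPAS1, which encodes HIF-2 alpha, had 6.08 and 6.10 in 5% GelMA, against 5.75 and 5.84 in collagen (log2 fold change 0.30 ± 0.048 SE, adjusted p = 0.000757). EGLN3, a prolyl hydroxylase that marks HIF for degradation and is itself a HIF target, had 1.90 and 1.61 log2 RPKM in 5% GelMA, against 4.26 and 4.10 in collagen (log2 fold change -2.42 ± 0.27 SE, adjusted p = 6.87e-05). EGLN1, the main enzyme of this kind, had 6.17 and 6.18 in 5% GelMA, against 7.02 and 7.06 in collagen (log2 fold change -0.86 ± 0.074 SE, adjusted p = 1.31e-05). HIF1A and EPAS1 were thus higher and EGLN1 and EGLN3 lower, which is not read as a contrast of all subunits with all hydroxylases. The list also holds the alpha subunit HIF3A and the hydroxylases EGLN2 and HIF1AN, whose values are not given here. ARNT, the constitutive partner, did not pass the test, at 5.09 and 5.12 in 5% GelMA, against 5.19 and 5.26 in collagen (log2 fold change -0.12 ± 0.054 SE, adjusted p = 0.105).

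The glycolytic pathway was lower from glucose entry to lactate export. Among 22 genes, 19 fell and 2 rose, with a median log2 fold change of -0.85. The transporter SLC2A1 (GLUT1) had 5.66 and 5.57 log2 RPKM in 5% GelMA, against 7.30 and 7.29 in collagen (log2 fold change -1.68 ± 0.094 SE, adjusted p = 8.91e-07), and SLC2A3, given above and counted in this list too, was lower still. HK2, the inducible hexokinase, had 4.06 and 3.94 log2 RPKM in 5% GelMA, against 6.09 and 6.13 in collagen (log2 fold change -2.11 ± 0.097 SE, adjusted p = 3.26e-07). GPI, which interconverts glucose and fructose phosphates, had 7.74 and 7.69 log2 RPKM in 5% GelMA, against 9.48 and 9.51 in collagen (log2 fold change -1.78 ± 0.076 SE, adjusted p = 2.12e-07), and PDK1, the kinase that closes pyruvate dehydrogenase, had 4.55 and 4.43 in 5% GelMA, against 5.92 and 5.91 in collagen (log2 fold change -1.42 ± 0.11 SE, adjusted p = 5.34e-06). The size of the difference varied along the pathway. The isoforms ALDOC and ENO2 changed by -1.65 and -1.62, PGK1 by -1.14, LDHA by -0.44, ENO1 by -0.29 and PKM by -0.24. GAPDH had 11.88 and 11.83 log2 RPKM in 5% GelMA, against 11.99 and 11.93 in collagen (log2 fold change -0.11 ± 0.051 SE, adjusted p = 0.111) and was not called. ALDOA read only 1.50 and 1.48 in 5% GelMA, against 3.24 and 3.25 in collagen, far under the other glycolytic enzymes, so its level is doubtful although it fell (-1.76). SLC16A3, the lactate exporter MCT4, fell (-1.19), whereas SLC16A1, the transporter MCT1, had 4.99 and 5.05 log2 RPKM in 5% GelMA, against 4.17 and 4.23 in collagen (log2 fold change 0.82 ± 0.07 SE, adjusted p = 1.31e-05). PFKM was the other gene that rose (0.26), a call that was lost without 5% GelMA replicate 1 (adjusted p = 0.0583) or collagen replicate 2 (adjusted p = 0.0571).

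**Figure D2:**
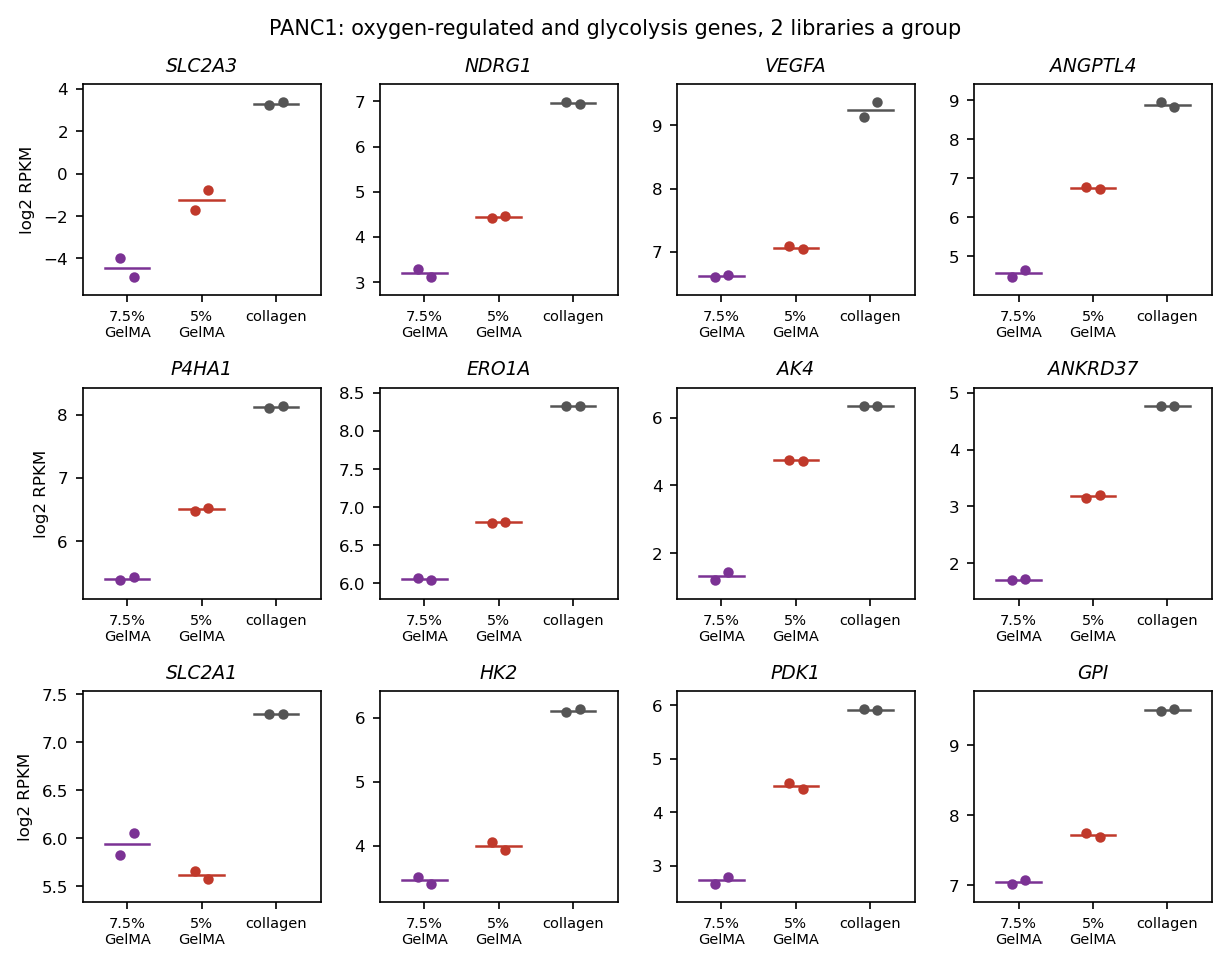
Log2 RPKM (y axis) of 12 oxygen-regulated and glycolysis genes in PANC1 in 7.5% GelMA, 5% GelMA and collagen (x axis), with 1 point per library and a line at the mean of 2. In every panel the 5% GelMA libraries lie under the collagen libraries, and in all but SLC2A1 the 7.5% GelMA libraries lie lower still.

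Genes that modify and cross-link collagen were lower as a group. Collagens, receptors and proteases had calls in both directions, as did all genes tested (23.0% higher and 23.2% lower). Of 17 modifying enzymes 12 fell and 1 rose (median -0.48). P4HA1, given above, is counted both here and among the HIF targets. LOX, which cross-links collagen and elastin, had 1.04 and 1.16 log2 RPKM in 5% GelMA, against 2.97 and 3.16 in collagen (log2 fold change -1.97 ± 0.25 SE, adjusted p = 0.000137), P4HA2 had 5.13 and 5.11 in 5% GelMA, against 6.25 and 6.14 in collagen (log2 fold change -1.07 ± 0.11 SE, adjusted p = 3.67e-05), and the lysyl hydroxylases PLOD1 and PLOD2 changed by -0.78 and -0.60. The 1 gene that rose was P3H2 (0.39).

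Of 28 collagen and basement membrane genes, 11 rose and 7 fell (median -0.09). The count of lower genes was 4 without 5% GelMA replicate 1 and without collagen replicate 2. The fibrillar collagens differed in direction. COL1A1 had 7.72 and 7.75 log2 RPKM in 5% GelMA, against 6.52 and 6.49 in collagen (log2 fold change 1.23 ± 0.068 SE, adjusted p = 8.15e-07), and COL3A1 had 3.49 and 3.58 log2 RPKM in 5% GelMA, against 5.62 and 5.84 in collagen (log2 fold change -2.19 ± 0.12 SE, adjusted p = 7.54e-07). HSPG2, the basement membrane proteoglycan perlecan, had 9.60 and 9.57 log2 RPKM in 5% GelMA, against 8.56 and 8.54 in collagen (log2 fold change 1.03 ± 0.07 SE, adjusted p = 2.83e-06), COL6A1 had 5.75 and 5.70 in 5% GelMA, against 4.73 and 4.75 in collagen (log2 fold change 0.98 ± 0.049 SE, adjusted p = 4.69e-07) and COL7A1, the anchoring fibril collagen, had 6.96 and 6.85 in 5% GelMA, against 6.04 and 6.18 in collagen (log2 fold change 0.80 ± 0.061 SE, adjusted p = 6.32e-06). COL12A1 (-1.32) and COL13A1 (-1.38) fell. FN1 (fibronectin) did not pass the test, at 3.31 and 3.78 in 5% GelMA, against 3.65 and 3.85 in collagen (log2 fold change -0.21 ± 0.23 SE, adjusted p = 0.505).

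Among 24 integrins, collagen receptors and adhesion adaptors, 8 rose and 7 fell (median -0.02). The collagen receptor kinase DDR2 had 0.21 and 0.23 log2 RPKM in 5% GelMA, against 1.83 and 2.14 in collagen (log2 fold change -1.77 ± 0.28 SE, adjusted p = 0.000659). ITGA2 and ITGB1, which form the collagen-binding integrin, did not pass the test, at 6.52 and 6.45 in 5% GelMA, against 6.60 and 6.62 in collagen for ITGA2 (log2 fold change -0.12 ± 0.069 SE, adjusted p = 0.168) and 9.49 and 9.51 in 5% GelMA, against 9.58 and 9.65 in collagen for ITGB1 (log2 fold change -0.11 ± 0.052 SE, adjusted p = 0.101). In a fit of the 4 libraries alone both passed (adjusted p = 0.0462 and 0.0482). ITGAV and ITGB5 form a receptor for vitronectin. ITGAV had 8.80 and 8.80 log2 RPKM in 5% GelMA, against 8.21 and 8.25 in collagen (log2 fold change 0.57 ± 0.05 SE, adjusted p = 1.42e-05) and ITGB5 had 8.20 and 8.22 in 5% GelMA, against 7.60 and 7.58 in collagen (log2 fold change 0.62 ± 0.039 SE, adjusted p = 1.94e-06), and both subunits were higher in 5% GelMA. ITGB4, the laminin-binding hemidesmosome subunit, had 6.23 and 6.19 log2 RPKM in 5% GelMA, against 6.98 and 7.03 in collagen (log2 fold change -0.79 ± 0.055 SE, adjusted p = 3.20e-06). TNS4, a focal adhesion adaptor, had 1.13 and 0.59 log2 RPKM in 5% GelMA, against -1.19 and -1.64 in collagen (log2 fold change 2.28 ± 0.20 SE, adjusted p = 1.67e-05), with 1.04 on the log2(RPKM + 1) scale. TNS4, counted among the 8 genes that rose, passed the level rule only through the 5% GelMA libraries, so it had to differ. Of 20 proteases and inhibitors, 5 rose and 8 fell (median -0.02). MMP14, the membrane collagenase, had 5.56 and 5.51 log2 RPKM in 5% GelMA, against 6.52 and 6.66 in collagen (log2 fold change -1.06 ± 0.059 SE, adjusted p = 8.60e-07), and MMP9, a gelatinase, had -0.72 and 0.02 in 5% GelMA, against 2.11 and 2.08 in collagen (log2 fold change -2.45 ± 0.44 SE, adjusted p = 0.00127), with -1.55 on the log2(RPKM + 1) scale. MMP2, the other gelatinase, had 7.65 and 7.73 in 5% GelMA, against 7.99 and 8.05 in collagen and was not called (log2 fold change -0.33 ± 0.35 SE, adjusted p = 0.475), though it passed in a fit of the 6 PANC1 libraries alone (adjusted p = 0.000616). TIMP3 and ADAMTS1 were higher (1.85, or 1.08 with log2(RPKM + 1), and 1.74), as was TIMP1 (0.54), and PLAUR and ADAM17 were lower (-0.83 and -0.79).

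Most interferon-stimulated genes were higher in 5% GelMA. Of 41 interferon-induced effectors, 26 rose and 4 fell, with a median log2 fold change of 0.57. OASL, IFIT2, IFIT3 and OAS2 were among the antiviral effectors that rose most. The upstream sequence of IFIT1, IFIT3, ISG15 and IFI6 is shown because all 4 hold GAAA, 2 bases of any kind and GAAA again, the letters of an interferon-stimulated response element. The letters are from RefSeq on GRCh38.p14, 180 bases ending at the base before the start, 5′ to 3′ in the direction of the gene, with the matches on either strand in capitals. IFIT1 lies at chr10:89392443-89392622, plus strand, IFIT3 at chr10:89327817-89327996, plus strand, ISG15 at chr1:1013317-1013496, plus strand and IFI6 at chr1:27672193-27672372, minus strand.
IFIT1: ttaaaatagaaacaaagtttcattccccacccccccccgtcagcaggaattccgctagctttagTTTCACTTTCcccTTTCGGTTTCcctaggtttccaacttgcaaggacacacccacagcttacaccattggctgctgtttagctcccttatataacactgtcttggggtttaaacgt
IFIT3: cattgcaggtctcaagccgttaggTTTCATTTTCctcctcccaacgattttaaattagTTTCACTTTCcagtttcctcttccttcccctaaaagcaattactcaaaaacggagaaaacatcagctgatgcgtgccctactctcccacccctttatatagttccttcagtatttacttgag
ISG15: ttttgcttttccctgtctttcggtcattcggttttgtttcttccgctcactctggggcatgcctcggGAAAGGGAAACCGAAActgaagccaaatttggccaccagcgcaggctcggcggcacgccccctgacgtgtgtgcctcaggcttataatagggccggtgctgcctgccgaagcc
IFI6: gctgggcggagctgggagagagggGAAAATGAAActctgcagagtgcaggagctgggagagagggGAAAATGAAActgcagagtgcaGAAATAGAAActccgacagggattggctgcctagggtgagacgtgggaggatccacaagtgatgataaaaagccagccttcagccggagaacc
In IFIT1 and IFIT3 the matches are on the strand opposite to the gene, and in ISG15 the 2 matches overlap. IFIT1, which binds foreign capped RNA, had 5.69 and 5.62 log2 RPKM in 5% GelMA, against 3.96 and 3.74 in collagen (log2 fold change 1.81 ± 0.17 SE, adjusted p = 2.20e-05). IFIT3, its partner, had 5.91 and 5.83 log2 RPKM in 5% GelMA, against 3.56 and 3.59 in collagen (log2 fold change 2.30 ± 0.12 SE, adjusted p = 7.26e-07). ISG15, a ubiquitin-like modifier, had 5.24 and 5.20 in 5% GelMA, against 3.61 and 3.58 in collagen (log2 fold change 1.63 ± 0.12 SE, adjusted p = 3.70e-06), and IFI6, a membrane protein that restricts cell death and viral replication, had 6.40 and 6.32 in 5% GelMA, against 4.80 and 4.57 in collagen (log2 fold change 1.68 ± 0.13 SE, adjusted p = 6.10e-06). In none of the 4 did the 5% GelMA and collagen libraries overlap. The letters occurred in the 250 bases upstream of 16 of the 32 effectors with a promoter in the table (50.0%) and of 6 of 14 class I antigen presentation genes (42.9%), against 3.1% of 27305 promoters. They occurred in 2 of 16 interferon signalling genes (12.5%), and in 2.2% of the 10684 genes of the comparison with a promoter.

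OASL, related to the enzymes that activate RNase L, had 5.22 and 5.10 log2 RPKM in 5% GelMA, against 2.26 and 2.33 in collagen (log2 fold change 2.87 ± 0.16 SE, adjusted p = 8.90e-07), and OAS2 had 3.16 and 2.90 in 5% GelMA, against 0.77 and 0.82 in collagen (log2 fold change 2.23 ± 0.19 SE, adjusted p = 1.37e-05). MX1, a dynamin-like GTPase that traps viral particles, had 3.49 and 3.43 log2 RPKM in 5% GelMA, against 1.48 and 1.59 in collagen (log2 fold change 1.92 ± 0.20 SE, adjusted p = 4.60e-05). RSAD2 (viperin) was near the level rule in 5% GelMA and under it in collagen, at 0.26 and 0.18 in 5% GelMA, against -2.34 and -2.41 in collagen (log2 fold change 2.60 ± 0.63 SE, adjusted p = 0.00691). RSAD2 had to differ, since it passed that rule only through the 5% GelMA libraries, and its log2 fold change was 0.86 with log2(RPKM + 1). In OASL, OAS2 and MX1 both 5% GelMA libraries were higher than both collagen libraries. The effectors that fell were LAMP3 (-2.02), SLFN5 (-1.05), MX2 (-0.64) and TRIM25 (-0.29). LAMP3 is also known as a target of hypoxia. Not every interferon gene moved. IFITM1, which blocks viral entry, had 4.75 and 4.90 log2 RPKM in 5% GelMA, against 5.27 and 4.63 in collagen and was not called (log2 fold change -0.12 ± 0.18 SE, adjusted p = 0.610), although without collagen replicate 2 it was called lower (-0.45, adjusted p = 0.0344), and without collagen replicate 1 the difference was positive (0.20). Among 25 genes of interferon induction and signalling, 11 rose and 5 fell (median 0.15). The RNA sensors led, with IFIH1 (MDA5) at 5.10 and 4.94 in 5% GelMA, against 3.78 and 3.64 in collagen (log2 fold change 1.31 ± 0.11 SE, adjusted p = 9.61e-06) and RIGI (RIG-I) at 5.81 and 5.81 in 5% GelMA, against 4.85 and 4.83 in collagen (log2 fold change 0.97 ± 0.062 SE, adjusted p = 2.13e-06). The interferon genes IFNB1, IFNL1, IFNL2 and IFNL3 were not analysed here. Of 17 class I antigen presentation genes 9 rose and 1 fell (median 0.15), with 5 higher when either 5% GelMA library or collagen replicate 2 was left out. NLRC5, the transactivator of class I genes, had 2.62 and 2.37 log2 RPKM in 5% GelMA, against 0.84 and 1.26 in collagen (log2 fold change 1.44 ± 0.15 SE, adjusted p = 5.24e-05), B2M had 9.24 and 9.15 in 5% GelMA, against 8.79 and 8.56 in collagen (log2 fold change 0.52 ± 0.076 SE, adjusted p = 0.000345), and PSMB8, an immunoproteasome subunit, had 6.04 and 6.06 in 5% GelMA, against 5.48 and 5.49 in collagen (log2 fold change 0.57 ± 0.051 SE, adjusted p = 1.79e-05). HLA-B did not pass the test, at 4.41 and 4.20 in 5% GelMA, against 4.68 and 4.70 in collagen (log2 fold change -0.38 ± 0.15 SE, adjusted p = 0.0531), but did in several alternatives, from the fit of the 6 PANC1 libraries alone (adjusted p = 0.00599) to that of the 14305 genes alone (adjusted p = 0.0483), and reads of these polymorphic genes can be shared. Of 16 chemokine, cytokine and NF-kB feedback genes, 5 rose and 2 fell, and 3 were higher without collagen replicate 2. The share called was near the 46.2% of all genes tested. CCL5 (0.75) was higher and ICAM1 (-0.77) and CSF1 (-0.76) were lower. Immune cell markers in the same libraries are given above, and their part in these values was not tested.

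**Figure D3:**
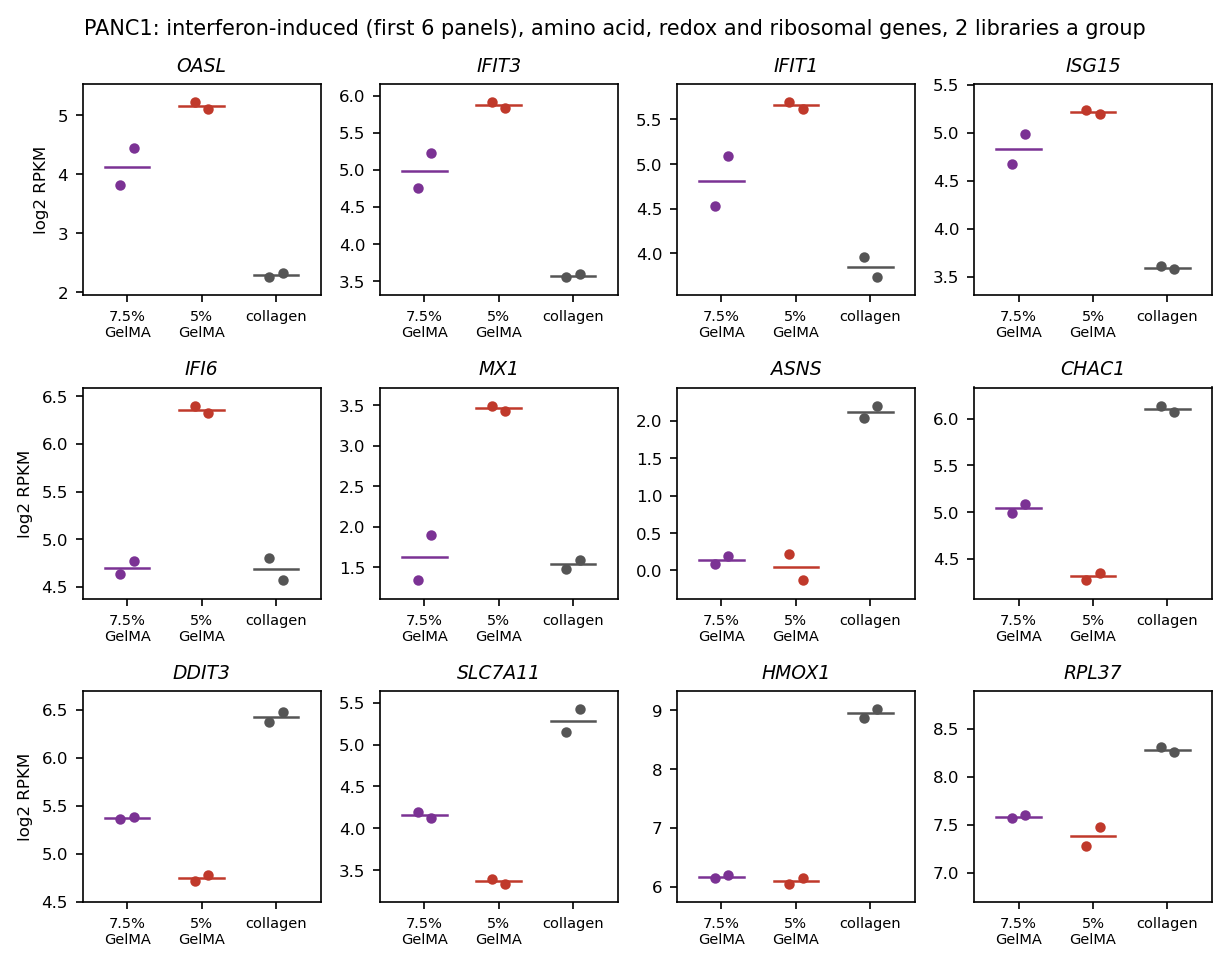
Log2 RPKM (y axis) of 12 genes in PANC1 in 7.5% GelMA, 5% GelMA and collagen (x axis), with 1 point per library and a line at the mean of 2. The first 6 panels, from OASL to MX1, are interferon-induced genes, highest in 5% GelMA, and the others, from ASNS to RPL37, are highest in collagen.

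ATF4 target genes were lower in 5% GelMA. Of 32 genes of the ATF4 response and of amino acid supply, 27 fell and 2 rose (median -0.95). ASNS, asparagine synthetase, is shown with its upstream sequence (chr7:97872409-97872588, minus strand, RefSeq on GRCh38.p14), because the response of this gene to amino acid shortage runs through TGATGNAAN, a composite site for C/EBP and ATF proteins, in capitals here.
ASNS: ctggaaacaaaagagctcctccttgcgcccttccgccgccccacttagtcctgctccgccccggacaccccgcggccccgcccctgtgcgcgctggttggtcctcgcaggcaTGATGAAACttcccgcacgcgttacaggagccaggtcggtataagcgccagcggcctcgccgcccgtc
The match lies in positions -68 to -60 from the start. These letters occurred on either strand in the 250 bases upstream of 3 of 24 genes of the list (12.5%), against 3.2% of all 27305 promoters. Among the 10684 genes of the comparison with a promoter the share was 1.3%. ASNS had 0.22 and -0.13 log2 RPKM in 5% GelMA, against 2.04 and 2.20 in collagen (log2 fold change -2.08 ± 0.34 SE, adjusted p = 0.000690). CHAC1, which degrades glutathione, had 4.27 and 4.35 log2 RPKM in 5% GelMA, against 6.14 and 6.07 in collagen (log2 fold change -1.79 ± 0.13 SE, adjusted p = 4.78e-06), and DDIT3, the transcription factor CHOP, had 4.71 and 4.78 in 5% GelMA, against 6.37 and 6.48 in collagen (log2 fold change -1.68 ± 0.08 SE, adjusted p = 4.02e-07). Each group of 2 was tight against the gap between the gels. SLC7A11, the cystine importer, had 3.40 and 3.34 log2 RPKM in 5% GelMA, against 5.15 and 5.42 in collagen (log2 fold change -1.92 ± 0.14 SE, adjusted p = 5.80e-06), and TRIB3, a pseudokinase that dampens the response, had 4.54 and 4.55 in 5% GelMA, against 5.92 and 5.92 in collagen (log2 fold change -1.38 ± 0.15 SE, adjusted p = 7.00e-05). The serine and one-carbon enzymes PSAT1, PHGDH and MTHFD2 changed by -1.15, -0.86 and -1.05. ATF4 itself, which is regulated mainly by translation, had 8.66 and 8.70 log2 RPKM in 5% GelMA, against 9.17 and 9.24 in collagen (log2 fold change -0.52 ± 0.044 SE, adjusted p = 1.22e-05). Among the genes that rose was ATF5, a relative of ATF4 (0.67). Of 20 cytosolic tRNA synthetases, which charge tRNAs with amino acids, 13 fell and 1 rose (median -0.50), from GARS1 (-1.02) to EPRS1 (-0.25), and QARS1 (0.23) was the gene that rose. Of 27 genes of the unfolded protein response, 17 fell and 1 rose (median -0.31). HSPA5, the main chaperone of the endoplasmic reticulum, had 10.10 and 10.13 log2 RPKM in 5% GelMA, against 10.95 and 11.05 in collagen (log2 fold change -0.88 ± 0.059 SE, adjusted p = 2.56e-06), and HERPUD1 had 4.73 and 4.78 in 5% GelMA, against 5.84 and 5.81 in collagen (log2 fold change -1.07 ± 0.09 SE, adjusted p = 1.20e-05). CALR, another chaperone, at 10.70 and 10.70 in 5% GelMA, against 10.65 and 10.63 in collagen, did not pass the test.

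Genes of the oxidative stress response shared this direction. Of 21 NRF2 targets and redox enzymes, 15 fell and 2 rose (median -0.54), SLC7A11 being in both lists. OSGIN1, an oxidative stress response gene, had 2.10 and 2.08 log2 RPKM in 5% GelMA, against 3.85 and 4.15 in collagen (log2 fold change -1.91 ± 0.18 SE, adjusted p = 2.18e-05), and TXNRD1, thioredoxin reductase, had 7.91 and 7.86 in 5% GelMA, against 8.76 and 8.94 in collagen (log2 fold change -0.96 ± 0.17 SE, adjusted p = 0.00142). NQO1, a quinone reductase, had 6.67 and 6.62 log2 RPKM in 5% GelMA, against 7.40 and 7.47 in collagen (log2 fold change -0.79 ± 0.15 SE, adjusted p = 0.00157), and GCLM, a subunit of the enzyme that starts glutathione synthesis, had 5.51 and 5.48 in 5% GelMA, against 6.22 and 6.41 in collagen (log2 fold change -0.82 ± 0.10 SE, adjusted p = 0.000153). PGD, an enzyme of the pentose phosphate pathway, was among the genes that rose (0.51). NFE2L2, which encodes NRF2, fell (-0.54). Of 8 metallothionein and zinc genes 1 rose, MT1M (1.85), and 1 fell, MT1E (-0.62).

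Ribosomal protein genes were lower by a small amount. Of 79 genes, 67 fell and 0 rose, with a median log2 fold change of -0.44. RPL37 had 7.28 and 7.48 log2 RPKM in 5% GelMA, against 8.31 and 8.26 in collagen (log2 fold change -0.91 ± 0.069 SE, adjusted p = 6.02e-06) and RPL31 had 6.90 and 7.03 in 5% GelMA, against 7.88 and 7.77 in collagen (log2 fold change -0.86 ± 0.06 SE, adjusted p = 3.56e-06). RPLP0, a common reference gene, did not pass the test, at 11.42 and 11.42 in 5% GelMA, against 11.45 and 11.49 in collagen. Ribosome biogenesis factors were mixed, with 4 higher and 6 lower of 20 (median -0.01), and 3 were lower without 5% GelMA replicate 2 or collagen replicate 1. MYC, which drives this programme, had 5.94 and 5.91 log2 RPKM in 5% GelMA, against 6.76 and 6.74 in collagen (log2 fold change -0.82 ± 0.035 SE, adjusted p = 1.94e-07), and FBL, a nucleolar methyltransferase, had 10.87 and 10.90 in 5% GelMA, against 11.35 and 11.38 in collagen (log2 fold change -0.48 ± 0.031 SE, adjusted p = 2.35e-06). In the same libraries 8 of 13 mitochondrially encoded genes and 8 of 16 replication-dependent histone genes were higher while 0 mitochondrially encoded and 2 histone genes were lower (medians 0.24 and 0.72). These classes also vary with RNA quality and poly-A capture, whose part in the ribosomal protein values was not tested. H1-2 had 7.97 and 7.99 log2 RPKM in 5% GelMA, against 7.05 and 6.55 in collagen (log2 fold change 1.18 ± 0.12 SE, adjusted p = 4.94e-05) and H2BC21 had 5.96 and 5.93 in 5% GelMA, against 4.97 and 4.87 in collagen (log2 fold change 1.02 ± 0.076 SE, adjusted p = 4.99e-06). Histone genes resemble each other closely, so reads may be split between copies. MT-ND6 had 11.65 and 11.69 log2 RPKM in 5% GelMA, against 10.46 and 10.65 in collagen (log2 fold change 1.11 ± 0.08 SE, adjusted p = 4.16e-06), while MT-CO1 holds the top rank in the table and has the same value in every library. Nuclear genes of oxidative phosphorylation had 5 higher and 7 lower of 37 (median 0.02), a smaller share than the 46.2% of all genes tested, with 8 higher and 4 lower without collagen replicate 1 and 4 lower without 5% GelMA replicate 1. NDUFA4L2, a hypoxia-induced subunit relative, was the one that fell most (-1.90, or -1.13 with log2(RPKM + 1)).

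Cholesterol synthesis genes were higher. Of 25 genes of cholesterol synthesis and uptake, 22 rose and 0 fell, with a median log2 fold change of 0.64. SQLE, squalene epoxidase, had 6.96 and 6.99 log2 RPKM in 5% GelMA, against 6.06 and 5.90 in collagen (log2 fold change 1.00 ± 0.051 SE, adjusted p = 5.55e-07), EBP, a sterol isomerase, had 6.44 and 6.50 in 5% GelMA, against 5.41 and 5.28 in collagen (log2 fold change 1.12 ± 0.055 SE, adjusted p = 4.39e-07), and MSMO1, a sterol monooxygenase, had 6.40 and 6.36 in 5% GelMA, against 5.38 and 5.28 in collagen (log2 fold change 1.05 ± 0.071 SE, adjusted p = 2.78e-06). Both 5% GelMA libraries were higher than both collagen libraries in these 3 genes. STARD4, a sterol carrier, did not pass the test, at 4.85 and 4.81 in 5% GelMA, against 4.75 and 4.72 in collagen. Fatty acid synthesis, with 15 genes, had 4 higher and 0 lower (median 0.08), a smaller share than the 46.2% of all genes. FADS2 was higher (0.43), and SCD, the main desaturase, had 11.69 and 11.60 in 5% GelMA, against 11.53 and 11.60 in collagen (log2 fold change 0.08 ± 0.16 SE, adjusted p = 0.707) and FASN had 9.09 and 9.07 in 5% GelMA, against 8.82 and 8.89 in collagen (log2 fold change 0.23 ± 0.17 SE, adjusted p = 0.310), neither past the test. FASN did pass in the fit of the 6 PANC1 libraries alone (adjusted p = 0.00165). Of 26 lysosome and autophagy genes 10 rose and 7 fell, with NPC2, which moves cholesterol out of lysosomes, higher (0.73), and the autophagy genes GABARAPL1 (-0.99), ULK1 (-0.89) and MAP1LC3B (-0.70) lower.

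Cell cycle genes differed little in size. Of 35 genes of DNA replication and the G1/S step 17 rose and 4 fell (median 0.16), and of 28 mitotic genes 12 rose and 1 fell (median 0.15). Without 5% GelMA replicate 1, 11 replication and 6 mitotic genes were higher, and without collagen replicate 1, 7 mitotic genes were. FEN1, a replication nuclease, had 7.31 and 7.28 log2 RPKM in 5% GelMA, against 6.84 and 6.91 in collagen (log2 fold change 0.42 ± 0.054 SE, adjusted p = 0.000150), and CDC25A, a phosphatase that starts replication, had 3.74 and 3.74 in 5% GelMA, against 3.15 and 3.19 in collagen (log2 fold change 0.57 ± 0.06 SE, adjusted p = 4.87e-05). MKI67, the proliferation marker, had 8.07 and 8.04 log2 RPKM in 5% GelMA, against 7.73 and 7.97 in collagen and did not pass the test (log2 fold change 0.21 ± 0.10 SE, adjusted p = 0.129), except without collagen replicate 2 (adjusted p = 0.0499), and CCNB2 fell (-0.34).

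Most Wnt pathway genes were higher, including receptors, feedback inhibitors and targets. Of 18 genes, 12 rose and 1 fell, with a median log2 fold change of 0.65. The receptors for R-spondin LGR4 and LGR5 had 7.15 and 7.25 in 5% GelMA, against 5.80 and 5.67 in collagen (log2 fold change 1.47 ± 0.062 SE, adjusted p = 2.10e-07) for LGR4 and 2.79 and 2.68 in 5% GelMA, against 0.89 and 0.76 in collagen (log2 fold change 1.91 ± 0.52 SE, adjusted p = 0.0125) for LGR5. FZD7, a Wnt receptor, had 8.70 and 8.68 log2 RPKM in 5% GelMA, against 7.22 and 7.11 in collagen (log2 fold change 1.53 ± 0.05 SE, adjusted p = 4.77e-08). AXIN2, the usual readout of beta-catenin signalling, had 2.60 and 2.50 log2 RPKM in 5% GelMA, against 1.27 and 1.13 in collagen (log2 fold change 1.35 ± 0.19 SE, adjusted p = 0.000321), and DKK1, a secreted inhibitor, had 10.44 and 10.48 in 5% GelMA, against 9.35 and 9.26 in collagen (log2 fold change 1.15 ± 0.039 SE, adjusted p = 5.90e-08). Both collagen libraries were lower than both 5% GelMA libraries in all of them. The call of LGR5 was lost without 5% GelMA replicate 1 (adjusted p = 0.062) or collagen replicate 2 (adjusted p = 0.0582). AXIN1, the constitutive scaffold, was the gene that fell (-0.42), and SFRP5 and DACT1, outside this list, are given above. Of 27 BMP and TGF-beta genes 10 rose and 5 fell (median 0.06). BMP4 had 3.24 and 3.33 log2 RPKM in 5% GelMA, against 1.66 and 1.79 in collagen (log2 fold change 1.56 ± 0.14 SE, adjusted p = 1.66e-05), and the latent TGF-beta binding proteins LTBP1 and LTBP2 rose (1.01 and 1.07), while the BMP inhibitor NOG (-0.68) and the activin subunit INHBA (-0.99) fell.

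Epithelial genes tended upward. Of 26 epithelial state genes 15 rose and 4 fell (median 0.36). CD24, a surface glycoprotein, had 9.14 and 9.09 log2 RPKM in 5% GelMA, against 6.52 and 6.22 in collagen (log2 fold change 2.74 ± 0.075 SE, adjusted p = 2.18e-08), with both collagen libraries more than 2 log2 units lower. SPINT1, an inhibitor of membrane serine proteases, had 5.03 and 4.90 log2 RPKM in 5% GelMA, against 3.67 and 3.38 in collagen (log2 fold change 1.44 ± 0.082 SE, adjusted p = 1.01e-06), CDH1, E-cadherin, had 4.86 and 4.84 in 5% GelMA, against 4.20 and 4.23 in collagen (log2 fold change 0.64 ± 0.056 SE, adjusted p = 1.46e-05), and EPCAM had 4.66 and 4.68 in 5% GelMA, against 3.86 and 3.71 in collagen (log2 fold change 0.88 ± 0.066 SE, adjusted p = 5.15e-06). CLDN7, a tight junction protein, fell (-0.99), and so did ELF3 (-0.53), DSP (-0.37) and TJP1 (-0.22), whose calls were lost when a single library was left out (adjusted p up to 0.0726 for ELF3, 0.158 for DSP and 0.101 for TJP1). That of DSP was also lost without the mean-variance trend (adjusted p = 0.0512). Of 17 mesenchymal state genes 4 rose and 5 fell (median 0.03), with 3 lower without 5% GelMA replicate 1 or collagen replicate 2. SPARC, a matrix glycoprotein, had 9.63 and 9.70 log2 RPKM in 5% GelMA, against 7.57 and 7.48 in collagen (log2 fold change 2.14 ± 0.30 SE, adjusted p = 0.000266) and SNAI1, a repressor of E-cadherin, had 3.46 and 3.45 in 5% GelMA, against 4.73 and 4.52 in collagen (log2 fold change -1.17 ± 0.28 SE, adjusted p = 0.00736). CDH11, which passed the level rule only through the 5% GelMA libraries, was higher (2.41, or 0.87 with log2(RPKM + 1)), LOX was lower (-1.97), and VIM, vimentin, had 11.93 and 11.93 in 5% GelMA, against 11.73 and 11.73 in collagen and did not pass the test (log2 fold change 0.20 ± 0.18 SE, adjusted p = 0.388), though it did in the fit of the 6 PANC1 libraries alone (adjusted p = 0.00365).

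Mechanical response genes showed no common direction. Of 27 YAP and TEAD genes and targets 6 rose and 9 fell (median 0.01). CCN1, an immediate target, had 10.46 and 10.44 log2 RPKM in 5% GelMA, against 9.05 and 9.10 in collagen (log2 fold change 1.38 ± 0.081 SE, adjusted p = 1.17e-06), whereas CCN2, its close relative, had 8.45 and 8.44 in 5% GelMA, against 8.34 and 8.47 in collagen and did not pass the test (log2 fold change 0.04 ± 0.17 SE, adjusted p = 0.862). AMOTL1 rose (1.14) and AMOTL2 fell (-0.47). Of 28 actomyosin and SRF genes 10 rose and 10 fell (median 0.05), with FHL1 (-1.70), FLNC (-1.31), TAGLN (-0.77) and MYL9 (-0.73) lower and TAGLN2 (0.60), FHL2 (0.55) and MYH9 (0.54) higher. Of 30 immediate early and MAPK feedback genes 15 rose and 8 fell (median 0.32). The ligand EREG had 3.63 and 3.54 log2 RPKM in 5% GelMA, against 1.95 and 2.03 in collagen (log2 fold change 1.60 ± 0.084 SE, adjusted p = 6.30e-07), ETV4, a MAPK-driven transcription factor, had 4.26 and 4.18 in 5% GelMA, against 3.04 and 2.88 in collagen (log2 fold change 1.26 ± 0.068 SE, adjusted p = 7.36e-07), and SPRY4 and DUSP4, feedback inhibitors, rose (0.59 and 1.06, that of DUSP4 being 0.53 with log2(RPKM + 1)). ATF3 (-1.50), FOSL2 (-0.84) and HBEGF (-0.63) fell. Of 16 heat shock proteins 7 rose and 4 fell (median 0.07), 3 being higher without 5% GelMA replicate 1, 5% GelMA replicate 2 or collagen replicate 1, with HSPB8 (1.58, or 0.97 with log2(RPKM + 1)) the highest and HSPA9 (-0.42) the lowest. Of 15 neuropeptide and neural genes 2 rose (TAC3 and SCG2, 1.24) and 3 fell (BCHE, PCDH15 and STMN3, -0.41). This is a smaller share than the 46.2% of all genes tested. TAC3 passed the level rule only through the 5% GelMA libraries and BCHE only through the collagen libraries, so both had to differ.

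**Figure D4:**
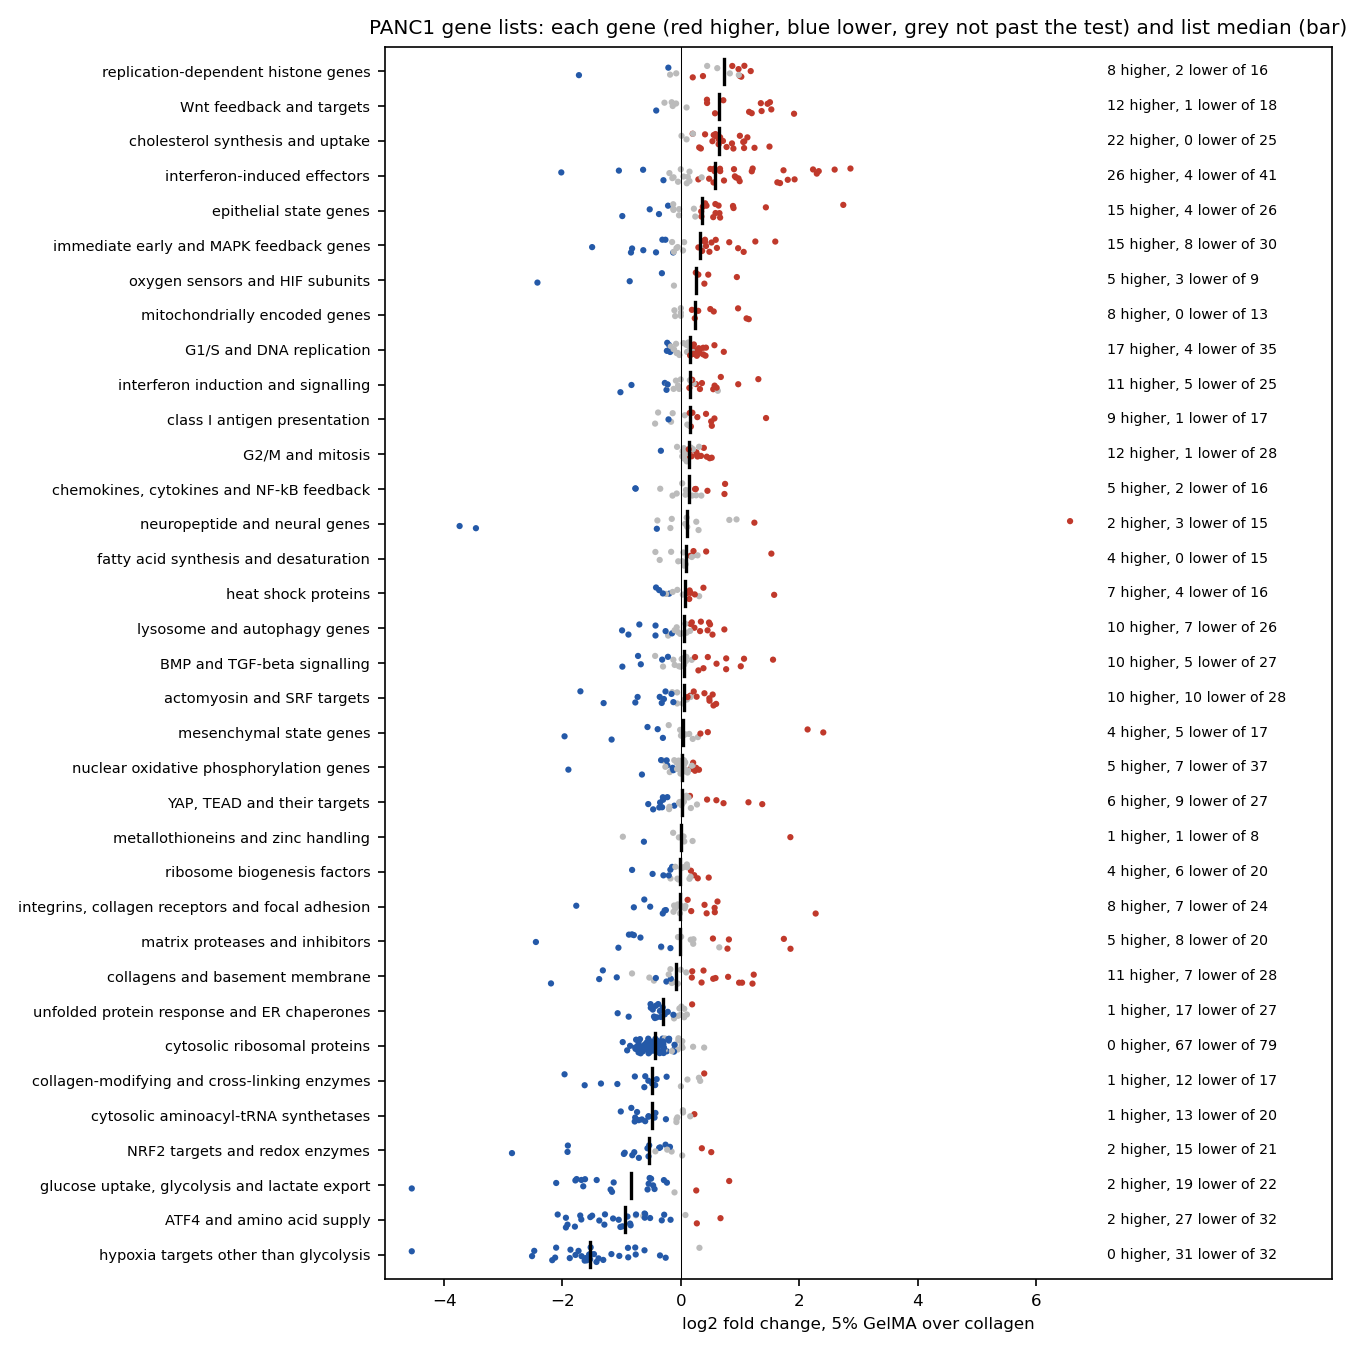
Log2 fold change, 5% GelMA over collagen, in PANC1 (x axis) of every gene of 35 lists (rows, ordered by their median), with red for genes higher and blue for genes lower at an adjusted p under 0.05, grey for the rest and a bar at the list median. Hypoxia targets, ATF4 genes and glycolysis stand at the low end and histone, Wnt and cholesterol genes at the high end, with the counts printed beside each row.

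PANC1 in 7.5% GelMA differed from PANC1 in 5% GelMA in fewer genes than 5% GelMA differed from collagen. Of the genes tested 18.7% were called, 9.16% higher and 9.56% lower in 7.5% GelMA, and of the 14305 genes 1339 were higher and 1438 lower, 2777 in all. Without 5% GelMA replicate 1 the total was 1446, and without 5% GelMA replicate 2 it was 1308. The 5% GelMA libraries stand in both comparisons, so the values are only set side by side. Most oxygen-regulated genes were lower again in 7.5% GelMA: of 32 HIF targets 21 were lower and 1 higher in 7.5% than in 5% GelMA (median -0.72), and of 22 glycolysis genes 17 were lower and 1 higher (median -0.54). AK4 had 1.20 and 1.44 log2 RPKM in 7.5% GelMA, against 4.74 and 4.73 in 5% GelMA (log2 difference -3.41 ± 0.19 SE, adjusted p = 6.67e-06), and PPFIA4 had 1.09 and 0.67 log2 RPKM in 7.5% GelMA, against 3.43 and 3.49 in 5% GelMA (log2 difference -2.58 ± 0.26 SE, adjusted p = 0.000172). MIR210HG, the host transcript of the hypoxia-induced microRNA miR-210, had 1.68 and 1.61 log2 RPKM in 7.5% GelMA, against 4.53 and 4.35 in 5% GelMA (log2 difference -2.79 ± 0.17 SE, adjusted p = 1.25e-05). CP, the iron oxidase ceruloplasmin, had 1.46 and 1.26 log2 RPKM in 7.5% GelMA, against 4.18 and 4.37 in 5% GelMA (log2 difference -2.91 ± 0.24 SE, adjusted p = 5.13e-05). In collagen these 4 transcripts stood higher again, with MIR210HG at 5.71 and 5.69 log2 RPKM and CP at 6.43 and 6.51. CA9, a hypoxia-induced carbonic anhydrase, had -4.55 and -3.74 log2 RPKM in 7.5% GelMA, against 0.75 and 0.64 in 5% GelMA (log2 difference -4.84 ± 0.47 SE, adjusted p = 0.000150), a difference that rests on values far under 1 RPKM and was -1.31 with log2(RPKM + 1). SLC2A1 was the 1 glycolysis gene higher in 7.5% than in 5% GelMA, at 5.83 and 6.05 log2 RPKM in 7.5% GelMA, against 5.66 and 5.57 in 5% GelMA (log2 difference 0.32 ± 0.094 SE, adjusted p = 0.0401), a call that was lost when any of the 4 libraries of 5% GelMA and collagen was left out (adjusted p between 0.0532 and 0.197), and with all libraries when the mean-variance trend was dropped (adjusted p = 0.092). The chemokine CXCL2 had 0.42 and 0.19 log2 RPKM in 7.5% GelMA, against 3.18 and 3.01 in 5% GelMA (log2 difference -2.78 ± 0.17 SE, adjusted p = 1.34e-05), with collagen at 2.85 and 2.64. AK4P3, a pseudogene of AK4, moved with it (-2.81) and cannot be told apart from it where reads are shared.

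The interferon genes, by contrast, stood lower in 7.5% than in 5% GelMA, on the side of collagen. Of 41 effectors 32 were lower and 0 higher (median -0.67), and 11 of 25 signalling genes and 8 of 17 class I genes were lower. Without either 5% GelMA library, 7 signalling genes were lower. IFI6 had 4.63 and 4.77 log2 RPKM in 7.5% GelMA, against 6.40 and 6.32 in 5% GelMA (log2 difference -1.66 ± 0.13 SE, adjusted p = 3.92e-05), and MX1 had 1.34 and 1.90 log2 RPKM in 7.5% GelMA, against 3.49 and 3.43 in 5% GelMA (log2 difference -1.84 ± 0.20 SE, adjusted p = 0.000267). In both genes the 7.5% GelMA values lay around those in collagen, which were 4.80 and 4.57 for IFI6 and 1.48 and 1.59 for MX1. OASL had 3.81 and 4.45 log2 RPKM in 7.5% GelMA, against 5.22 and 5.10 in 5% GelMA (log2 difference -1.03 ± 0.16 SE, adjusted p = 0.00190), still above the collagen libraries. Between 7.5% GelMA and collagen, 11 of the 41 effectors were higher and 15 lower in 7.5% GelMA (median -0.05). Of the 17 class I genes 4 were higher and 7 lower. Over all genes tested, 27.2% were higher and 26.6% lower in that comparison. Cholesterol genes followed in smaller steps, 14 of 25 lower and 0 higher (median -0.30). Fatty acid synthesis genes, which had changed little between 5% GelMA and collagen, were lower in 7.5% GelMA in 8 of 15 cases and higher in 1, with SCD at 10.63 and 10.61 log2 RPKM in 7.5% GelMA, against 11.69 and 11.60 in 5% GelMA (log2 difference -1.02 ± 0.16 SE, adjusted p = 0.00212). The ATF4 genes were higher in 7.5% than in 5% GelMA, 20 of 32 higher and 1 lower (median 0.41), as were 9 of 20 tRNA synthetases and 27 of 79 ribosomal proteins. The last 2 counts were 5 and 7 without 5% GelMA replicate 1, and 6 and 12 without 5% GelMA replicate 2. CHAC1 had 4.99 and 5.09 log2 RPKM in 7.5% GelMA, against 4.27 and 4.35 in 5% GelMA (log2 difference 0.72 ± 0.13 SE, adjusted p = 0.00456). The highest differences in 7.5% GelMA were those of CYP1A1, the main target of the aryl hydrocarbon receptor, with 3.18 and 3.23 log2 RPKM in 7.5% GelMA, against 1.13 and 0.42 in 5% GelMA (log2 difference 2.43 ± 0.28 SE, adjusted p = 0.000314), VIPR1, a receptor for vasoactive intestinal peptide, with 2.45 and 2.80 log2 RPKM in 7.5% GelMA, against 0.76 and 0.18 in 5% GelMA (log2 difference 2.15 ± 0.20 SE, adjusted p = 0.000108), and TNS4, with 3.14 and 2.61 log2 RPKM in 7.5% GelMA, against 1.13 and 0.59 in 5% GelMA (log2 difference 2.01 ± 0.20 SE, adjusted p = 0.000178). CEMIP, which takes part in hyaluronan breakdown, PPP1R16B and LINC00622 followed (1.71, 1.70 and 1.69), LINC00622 with 1.11 without 5% GelMA replicate 2. CYP1A1 and VIPR1 did not differ past the test between 5% GelMA and collagen (0.46 and -0.15).

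The response of PANC1 to 5% GelMA was set against that of BXPC3 by the difference of the 2 effects, which was called for 31.1% of the genes tested, 15.0% with a higher and 16.1% with a lower effect in PANC1. Of the 14305 genes 2249 had a higher and 2454 a lower effect in PANC1. In BXPC3 alone 29.9% of the genes tested were called. The lines have no library in common. Among the 14305 genes, 2764 were called in both lines, of which 2011 (72.8%) had the same direction and 753 the opposite. Of the opposite ones, 349 were higher in 5% GelMA than in collagen in PANC1 and 404 lower. With 48.4% of the 14305 genes called in PANC1 and 32.1% in BXPC3, many would be called in both from these shares alone. Nothing is read from the count of 2764. Oxygen-regulated genes were lower in both lines. The medians of the HIF targets were -1.53 in PANC1 and -1.03 in BXPC3, and those of glycolysis -0.85 in PANC1 and -0.60 in BXPC3. The size still differed, with a lower effect in PANC1 for 15 of 32 HIF targets and a higher one for 2. Of 22 glycolysis genes 9 had a lower and 2 a higher effect in PANC1. Cholesterol genes were higher in both, with medians of 0.64 in PANC1 and 0.57 in BXPC3. Of these 25 genes 8 had a higher and 2 a lower effect in PANC1.

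The interferon, ATF4 and NRF2 genes separated the lines. Among 41 interferon effectors the difference of effects was higher in PANC1 for 29 and lower for 4, with medians of 0.57 in PANC1 and -0.19 in BXPC3. OASL had a log2 fold change of 2.87 in PANC1 and -0.49 in BXPC3 (log2 difference of effects 3.35 ± 0.23 SE, adjusted p = 9.86e-06). Of 32 ATF4 genes 26 had a lower effect in PANC1 and 0 a higher one, with medians of -0.95 in PANC1 and 0.21 in BXPC3. CHAC1 changed by -1.79 in PANC1 and 0.78 in BXPC3 (log2 difference of effects -2.57 ± 0.19 SE, adjusted p = 1.40e-05). The tRNA synthetases (13 of 20 with a lower effect in PANC1), NRF2 targets (18 of 21) and ribosomal proteins (54 of 79) took the same side. The medians of the tRNA synthetases were -0.50 in PANC1 and 0.19 in BXPC3, and those of the NRF2 targets -0.54 in PANC1 and 0.33 in BXPC3. Ribosomal proteins were lower in both lines, with medians of -0.44 in PANC1 and -0.12 in BXPC3. HMOX1 changed by -2.85 in PANC1 and 0.54 in BXPC3 (log2 difference of effects -3.40 ± 0.19 SE, adjusted p = 2.90e-06). Wnt genes had a higher effect in PANC1 for 8 of 18 and a lower one for 1. SFRP5 changed by -2.88 in PANC1 and 2.20 in BXPC3 (log2 difference of effects -5.08 ± 0.60 SE, adjusted p = 0.000222), so the 2 lines had opposite signs. LAMC3, a laminin chain, and SOX18, a transcription factor, had opposite signs too (-0.86 and -0.98 in PANC1, 2.25 and 2.26 in BXPC3). Their PANC1 calls were each lost without 1 library (adjusted p up to 0.0973 for LAMC3 and 0.11 for SOX18), as were those of TFF3 and CA9 (up to 0.0667 and 0.0857). CA9 changed by -1.55 in PANC1 and -7.00 in BXPC3 (log2 difference of effects 5.44 ± 0.66 SE, adjusted p = 0.000260), the same direction with a larger step in BXPC3. TFF3, a trefoil peptide of mucous epithelia, changed by 1.00 in PANC1 and -2.51 in BXPC3 (log2 difference of effects 3.51 ± 0.34 SE, adjusted p = 7.37e-05). TAC3, FFAR4, BCHE, G0S2 and the pseudogene ECEL1P1 complete the leading differences (7.56, 3.48, -3.16, -3.37 and 4.01). Low values set the size of several of these. FFAR4 averaged 0.298 RPKM in 5% GelMA and 0.202 RPKM in collagen in BXPC3, under the level rule. In BXPC3, LAMC3 averaged 0.0412 RPKM in 5% GelMA and 0.00867 RPKM in collagen, far under the level rule, and its difference of effects was -0.83 with log2(RPKM + 1). On that scale the differences were -3.31 for SFRP5, -1.75 for SOX18, -1.62 for BCHE, 2.47 for ECEL1P1, 2.30 for TAC3 and 3.57 for CA9.

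**Figure D5:**
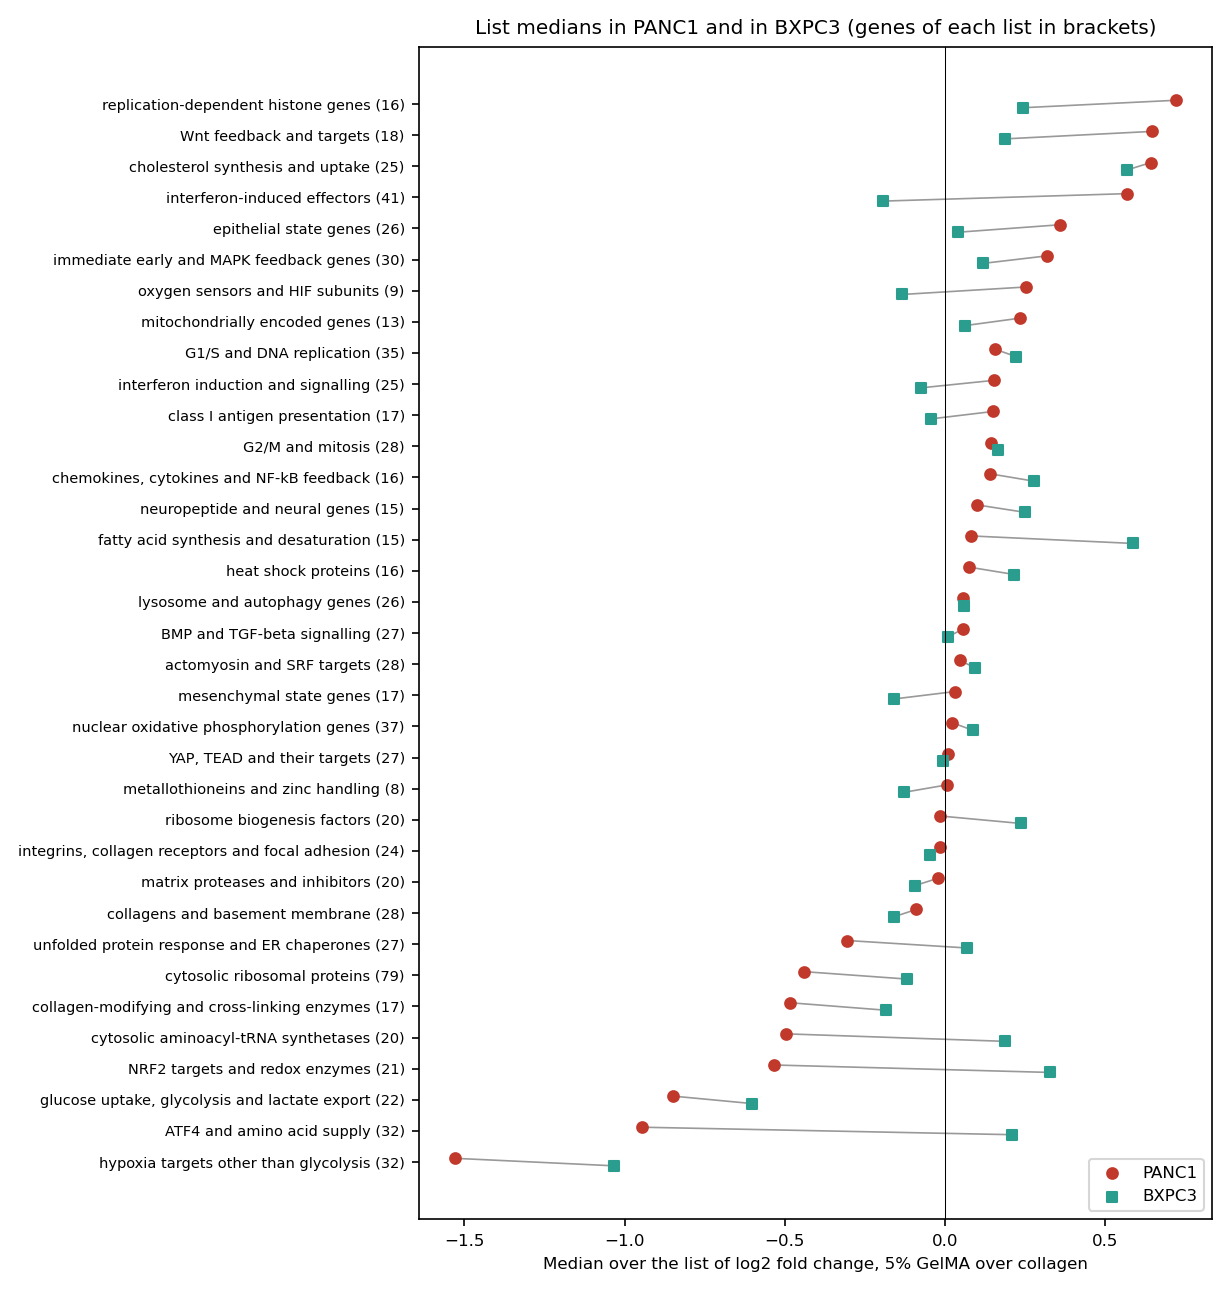
Median log2 fold change, 5% GelMA over collagen (x axis), of the genes of each list (rows, with their number in brackets) in PANC1 (red circles) and BXPC3 (green squares). Hypoxia, glycolysis and cholesterol lists lie on the same side of 0 in both lines, while the ATF4, NRF2, tRNA synthetase and interferon effector lists lie on opposite sides.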

How the data were processed

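RNA was extracted with an RNeasy mini kit and libraries were made by poly-A capture, per the labels' protocols. HISAT2 2.1.0, HTSeq and the build GRCh38 (hg38) are named in the submitters' processing notes, with no settings. The authors deposited 1 table of log2 RPKM values for 16299 Ensembl genes in 12 libraries (2 lines, 3 gels, 2 libraries each), from -8.66 to 13.74. Sorted values of the libraries were equal within 0.05 log2 for the top 13758 ranks, so the deposited log2 values were read as quantile normalized, which removes depth and any difference in total RNA. The 15794 genes reaching 1 RPKM in 2 or more of the 12 libraries (505 did not) were fitted with limma 3.58.1 in R 4.3.3, with 1 mean per group and a mean-variance trend (6 residual and 3.89 prior degrees of freedom). Adjustment was made over all 15794 genes by Benjamini-Hochberg, with calls made under 0.05. The script was tested on simulated data. Symbols came from the table (16250) and from GENCODE 29 (49).

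The 14305 genes and the 39 gene lists (1004 entries, 929 in the table, 865 among the 14305 genes) were chosen with earlier results of these data known. Some genes stand in more than 1 list, such as P4HA1, MYC, ATF3 and LOX, so the lists are not separate results. Genes were named by rule: the 12 highest and 12 lowest log2 fold changes among called, non-overlapping genes averaging at least 3 RPKM in 1 gel, members of the lists, and the 6 highest and 6 lowest differences between 7.5% and 5% GelMA and between the lines. Replicate numbers did not pair the libraries. Alternatives changed the filter, the pseudocount, the centring, the libraries fitted, the trend and the block, and left out each PANC1 library of 5% GelMA and collagen in turn.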

Additional observations from a re-analysis of the deposited data

Results flagged for a closer look

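The effect of 5% GelMA over collagen differed between PANC1 and BXPC3 in 4703 of the 14305 genes, by the interaction term of the limma fit. Among genes called in PANC1 and averaging at least 3 RPKM in a PANC1 group, the 6 highest differences of effects were those of TAC3 (difference of effects 7.56 log2), CA9 (5.44), ECEL1P1 (4.01), TFF3 (3.51), FFAR4 (3.48) and OASL (3.35). The 6 lowest were those of SFRP5 (-5.08), HMOX1 (-3.40), G0S2 (-3.37), SOX18 (-3.24), BCHE (-3.16) and LAMC3 (-3.10). TAC3, CA9, ECEL1P1, FFAR4, SFRP5, SOX18, BCHE and LAMC3 have values under 1 RPKM in at least 1 group. The size of their differences depends on how low values were set.

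The 2 concentrations of GelMA differed in 2777 of the 14305 genes. Among called genes averaging at least 3 RPKM in 1 of these 2 gels, those with the 6 lowest differences in 7.5% GelMA were AK4 (log2 difference -3.41), CP (-2.91), AK4P3 (-2.81), MIR210HG (-2.79), CXCL2 (-2.78) and PPFIA4 (-2.58). Those with the 6 highest were CYP1A1 (2.43), VIPR1 (2.15), TNS4 (2.01), CEMIP (1.71), PPP1R16B (1.70) and LINC00622 (1.69).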

How the results depend on the processing

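The number of the 14305 genes called between 5% GelMA and collagen (6925) ranged from 6546 to 7677 over the alternatives to the filter, pseudocount, centring, libraries fitted, trend and block, and from 5079 to 5842 when 1 library was left out. For the difference between lines (4703) the ranges were 4212 to 5428 and 3483 to 4071. Between 7.5% and 5% GelMA (2777) the alternatives gave 2210 to 3420, and leaving out 1 library gave totals of 1308 to 2884, 555 to 1416 higher genes and 753 to 1468 lower genes, the low ends coming from the 5% GelMA libraries. Of 244 single-gene results, 233 to 238 kept their direction and side of the threshold without 1 library. The direction of 4 genes that did not pass the test turned when 1 library was left out, with log2 fold changes from -0.022 to 0.104 for CCN2, -0.436 to 0.026 for FN1, -0.45 to 0.20 for IFITM1 and -0.44 to 0.15 for VIPR1. The cause was not tested. None of the list medians further from 0 than the SD between replicates changed sign. A change of sign in medians nearer 0 was not counted. Of the 35 medians, 2 to 8 moved by more than that SD when 1 library was left out. With log2(RPKM + 1) 4 did, and with libraries centred on the median gene 2 did. Equal replicate numbers do not pair the libraries: the deviations of same-numbered PANC1 libraries from their group means correlated at -0.032, -0.008 and -0.011 over genes. With the replicate block 6546 genes were called between 5% GelMA and collagen, 2399 between 7.5% and 5% GelMA and 4217 between the lines, the call of SLC2A1 between 7.5% and 5% GelMA was lost (adjusted p = 0.0615), and HLA-B passed between 5% GelMA and collagen (adjusted p = 0.0335). Unknown depth, 2 libraries a group and values far under 1 RPKM limit the precision of single genes.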
